A study of Mus musculus with 15 samples.

Results

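The report covers 52 interferon-stimulated genes in endothelial cells of the mouse heart, out of 23337 genes in the deposited count table. The genes were taken from a list of symbols: 51 had a row under the listed symbol, and Ifi27 was found under its synonym Ifi27l1. All 52 had enough reads to be tested. Hearts came from mice homozygous for a loxP-flanked gene for STING (STINGfl/fl), an adaptor protein that relays the detection of DNA in the cytosol. KO mice were Cad5CreERT2+/+ STINGfl/fl and WT mice were Cad5CreERT2-/- STINGfl/fl, so the WT mice carried the floxed allele too. CreERT2 is a recombinase that works once its ligand is given, and the Cad5 (VE-cadherin) promoter drives it in endothelium. The inducing treatment, strain, sex and age are not given in the sources used here. Since all KO mice and no WT mice carried the recombinase, an effect of Cre and an effect of STING loss cannot be told apart. Mice had transverse aortic constriction (TAC), which narrows the aorta and loads the left ventricle with pressure, or sham surgery, and hearts were taken after 4 weeks. Cells that were CD45- and CD31+, that is, free of a surface protein of leukocytes and positive for one of endothelium, were sorted by flow cytometry. Among WT mice 3 had sham surgery and 5 had TAC, and among KO mice 3 had sham surgery and 4 had TAC, with 1 library for each mouse.

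Interferons are secreted proteins that bind receptors at the cell surface. Type I interferons such as interferon beta activate the kinases JAK1 and TYK2, which phosphorylate transcription factors such as STAT2. A complex of STAT2 with IRF9 binds the interferon-stimulated response element, while interferon gamma acts through another DNA element, the gamma-activated site. The genes switched on in this way encode sensors of foreign nucleic acid, enzymes that block viral translation or replication, and regulators of the response itself. STING lies upstream: once the enzyme cGAS has detected DNA in the cytosol, STING engages the kinase TBK1 and the transcription factor IRF3, which induce interferon beta.

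Sequences before the start of 6 of the genes are shown because all 6 were lower in KO than in WT hearts and carry the core letters to which the STAT and IRF complex binds. Promoter windows are those of RefSeq on GRCm38.p6, the assembly that mm10 is made from, and run from 250 bases before to 50 bases after a gene start; the 250 bases before the start are printed, 5′ to 3′ on the strand of the gene. Capitals mark each match of GAAANNGAA, in which N is any base, or of its reverse complement, and adjoining or overlapping matches form 1 run of capitals. The windows are Ifit1 (chr19:34640639-34640888, plus strand), Ifit3 (chr19:34583279-34583528, plus strand), I830012O16Rik, now named Ifit3b (chr19:34607707-34607956, plus strand), Isg15 (chr4:156200819-156201068, minus strand), Bst2 (chr8:71537473-71537722, minus strand) and Rsad2 (chr12:26456453-26456702, minus strand).
Ifit1: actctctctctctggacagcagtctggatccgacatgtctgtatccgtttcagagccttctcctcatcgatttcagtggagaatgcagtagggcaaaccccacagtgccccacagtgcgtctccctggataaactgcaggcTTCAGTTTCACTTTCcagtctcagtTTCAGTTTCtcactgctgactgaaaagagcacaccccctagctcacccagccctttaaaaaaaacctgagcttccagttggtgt
Ifit3: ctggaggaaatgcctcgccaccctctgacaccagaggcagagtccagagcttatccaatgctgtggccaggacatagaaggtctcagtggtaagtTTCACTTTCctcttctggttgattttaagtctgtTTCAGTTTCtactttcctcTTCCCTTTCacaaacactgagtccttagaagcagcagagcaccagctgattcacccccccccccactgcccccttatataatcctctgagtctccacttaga
Ifit3b: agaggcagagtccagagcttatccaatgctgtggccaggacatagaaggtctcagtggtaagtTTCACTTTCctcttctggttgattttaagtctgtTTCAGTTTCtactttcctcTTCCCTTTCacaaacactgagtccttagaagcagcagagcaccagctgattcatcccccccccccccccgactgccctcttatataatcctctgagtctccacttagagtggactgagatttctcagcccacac
Isg15: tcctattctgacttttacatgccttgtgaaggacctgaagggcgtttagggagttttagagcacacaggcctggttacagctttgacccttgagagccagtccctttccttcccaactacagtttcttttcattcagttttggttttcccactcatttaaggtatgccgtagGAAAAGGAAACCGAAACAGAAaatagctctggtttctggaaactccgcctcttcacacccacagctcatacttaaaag
Bst2: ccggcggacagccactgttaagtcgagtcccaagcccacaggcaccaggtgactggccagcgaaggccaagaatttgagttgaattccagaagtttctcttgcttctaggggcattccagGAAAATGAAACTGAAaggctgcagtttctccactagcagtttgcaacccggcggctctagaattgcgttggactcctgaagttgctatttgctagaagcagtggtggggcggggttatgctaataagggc
Rsad2: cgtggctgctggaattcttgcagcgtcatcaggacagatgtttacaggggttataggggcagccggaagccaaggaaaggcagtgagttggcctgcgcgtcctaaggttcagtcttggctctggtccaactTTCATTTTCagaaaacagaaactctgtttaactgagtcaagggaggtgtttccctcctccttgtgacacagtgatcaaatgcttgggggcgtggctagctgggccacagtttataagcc

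Matches lay within 187 bases of the gene start in the 6 windows. In Ifit1 the first bases of the 3 matches were 109, 103 and 84 bases before the start, and in Isg15 they were 78, 72 and 66 bases before it. Bst2 had 2 matches, at 130 and 124 bases, and Rsad2 had 1, at 119 bases. Ifit3 and Ifit3b each had 3, in an arrangement that was shared, and their printed windows had an identical run of 169 bases. Of the 52 genes 39 had a RefSeq window (47 windows in all), and 23 of the 39 (59.0%) had at least 1 match, against 9.76% of all 27025 genes with a window. Counted over windows, 51.1% of those of the 39 genes and 8.56% of all 32851 windows held the motif. The core letters of the gamma-activated site, TTCNNNGAA, were in 21.3% of the windows of the 39 genes and in 8.30% of all windows, and 2 windows of these genes had matches of both kinds that overlapped. A match is a description of the letters and does not show that a factor binds there.

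Levels are given in CPM, read counts scaled to a common library total. Within a group they are given in the order of mouse numbers, 131 to 133 for WT sham, 134 to 138 for WT TAC, 348 to 350 for KO sham and 351 to 354 for KO TAC. Differences are log2 fold changes ± SE from the quasi-likelihood test of edgeR on all 12471 genes tested, with Benjamini-Hochberg adjusted p-values. A gene is said to rise or fall, or to be called, where the adjusted p is under 0.05. Total counts ran from 1362346 in WT sham 133 to 15670319 in WT TAC 134, and a floor of 3 counts stood at 0.19 to 2.26 CPM. All libraries carried 1 batch label. WT and KO mice had separate runs of mouse numbers, so a difference between the runs and a genotype effect cannot be told apart. In bulk RNA, fewer cells of a type and less RNA per cell cannot be told apart. The libraries KO sham 348 and 350 stood apart: 206 and 319 genes had no read where at least 10 were expected from the other libraries, against 3 to 28 genes in the other 13. The sorted cells had the identity they were sorted for: 10 endothelial markers summed to 12900 to 16500 CPM, and 10 leukocyte markers to 5.49 to 13.3 CPM. Of the leukocyte markers Adgre1, Cd3e, S100a8 and Siglech stayed under 1 CPM in all libraries, and Ptprc, the gene for CD45, ran from 0.0933 to 2.26 CPM. The gene for STING, listed as Tmem173, was at 54.0 to 82.0 CPM in the WT libraries and at 17.3 to 31.4 CPM in the KO libraries.

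Levels differed widely among the 52 genes. Per kilobase of transcript, the level over all libraries was highest for Ifitm3, a membrane protein that blocks virus entry, at 507 CPM per kb. Lgals3bp, a secreted glycoprotein, followed at 132, the nuclear body protein gene Sp100 at 111 and the membrane tether Bst2 at 107 CPM per kb. At the low end stood Oas3 at 0.136 and Mx1 at 0.194 CPM per kb, with Zbp1 next at 2.49. Summed over the 52 genes, the level ran from 4738 CPM in KO TAC 351 to 6950 CPM in WT TAC 138.

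Many of these genes were called lower in KO than in WT hearts after TAC, and fewer were after sham. After TAC, 24 of the 52 genes were lower in KO than in WT hearts and 4 were higher, 53.8% in all, against 29.8% of all genes tested (15% of all genes were lower and 14.8% higher). After sham, 9 were lower and 1 was higher, while 9.21% of all genes were called, 4.63% lower and 4.57% higher. Averaged over both surgeries, 26 were lower and 3 were higher, 55.8% in all, against 30.8% of all genes (16% lower and 14.8% higher). The median log2 fold change of the 52 genes was -0.27 after TAC, where that of all genes was -0.02, and -0.19 after sham, where that of all genes was -0.01. For single calls below, the libraries named are those whose removal, 1 at a time, ended the call, unless stated. Alternatives of other kinds are given in the closing sections. Leaving out KO TAC 351, the count after TAC was 21, with 16 lower and 5 higher, and leaving out WT sham 132, the count after sham was 3, all lower. Without KO sham 348 and 350 together, 1 of the 10 calls after sham was kept, on Ifi27, and after TAC 30 genes were called, with all 28 of the calls above among them.

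**Figure D1:**
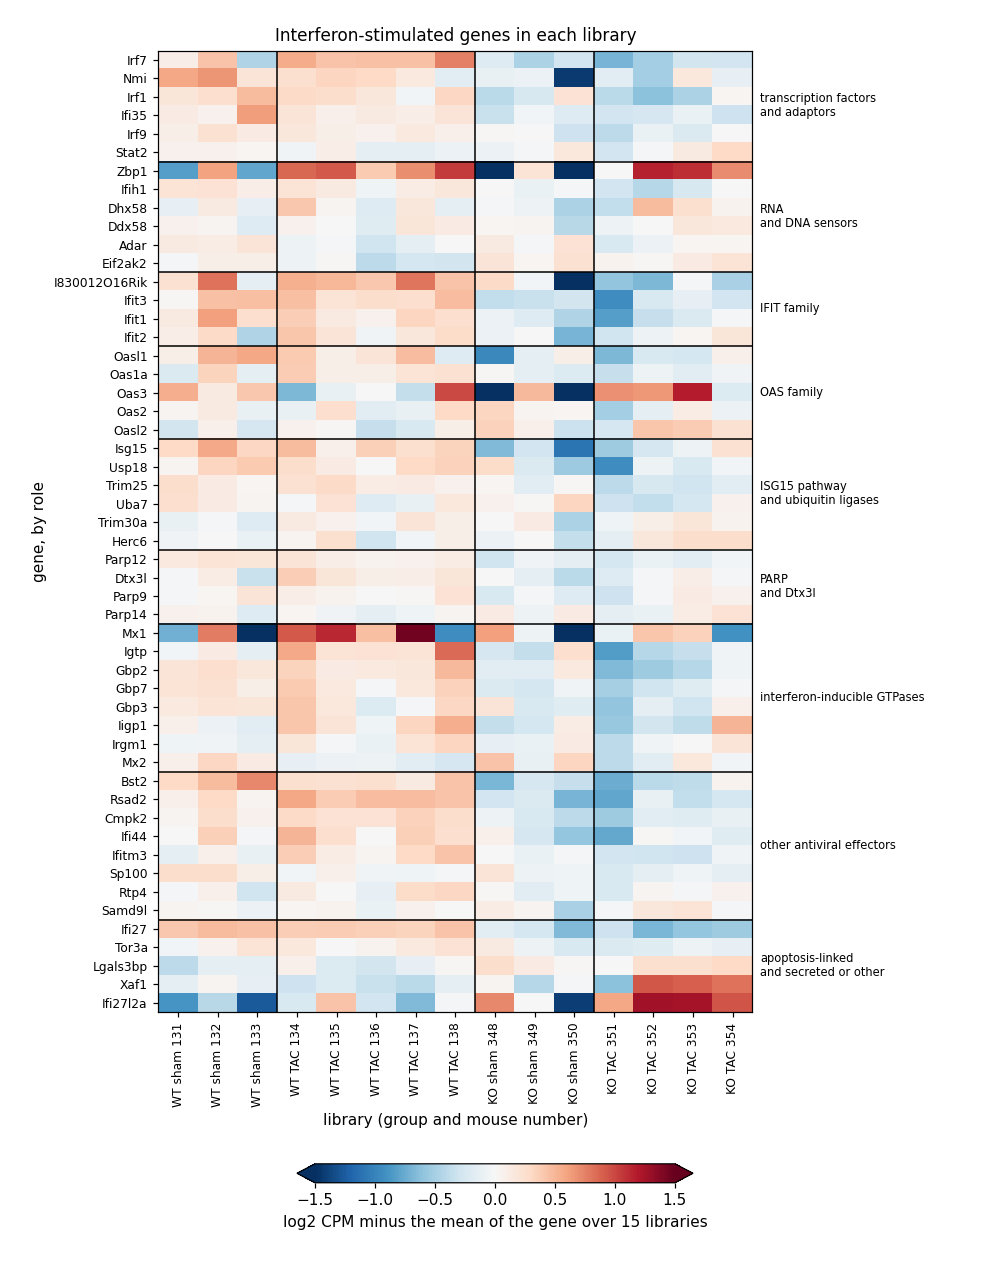
Each row is 1 of the 52 genes, grouped by role, and each column 1 of the 15 libraries, and the colour is the log2 CPM minus the mean of that gene over all libraries, with colours saturating beyond 1.5 in either direction. Of the 52 rows, 27 to 46 are above their mean (red) in each of the 8 WT columns on the left. In each of the 7 KO columns on the right 3 to 25 rows are. Xaf1 and Ifi27l2a at the bottom are red in KO TAC 352, 353 and 354.

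Across libraries the genes were lowest in KO TAC 351. The median deviation of the 52 genes from their own means was -0.31 in that library on the log2 scale, and 3 of the 52 lay above their mean. WT libraries had median deviations of 0.004 to 0.234, and KO libraries of -0.31 to -0.007. So all 7 KO libraries lay below all 8 WT libraries, though WT TAC 136 at 0.004 and KO TAC 354 at -0.007 lay close to each other. Over all genes tested, the median deviation ran from -0.041 to 0.037.

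**Figure D2:**
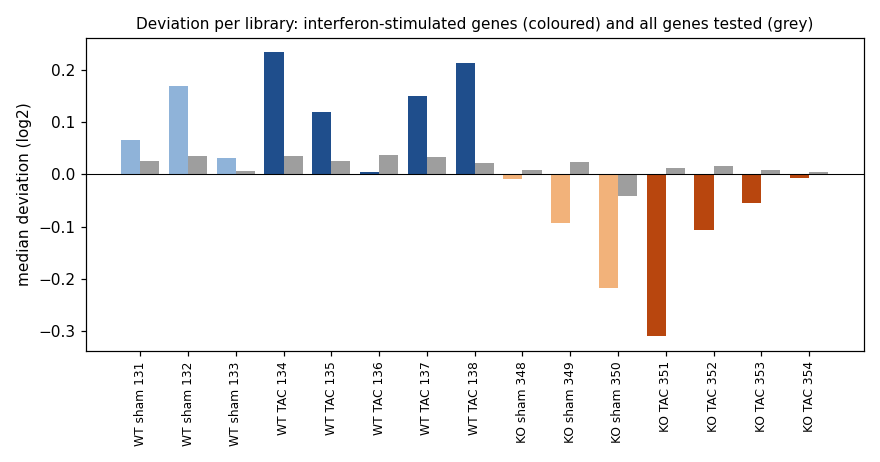
Coloured bars are the median, over the 52 interferon-stimulated genes, of log2 CPM minus the mean of each gene over 15 libraries, 1 bar per library, and grey bars are the same over all 12471 genes tested. The coloured bars are above 0 in the 8 WT libraries and below 0 in the 7 KO libraries, with the lowest in KO TAC 351 at -0.31.

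For 9 genes every KO library lay below every WT library: Ifi35, Irf9, Ifit1, Ifit3, Parp12, Rsad2, Cmpk2, Bst2 and Ifi27. Over all genes tested, 3.74% had this pattern in this direction. Ifi27, which encodes a mitochondrial protein tied to apoptosis (mm10 chromosome 12, 103434189 to 103440245, plus strand), had the smallest p-values. It was at 80.7, 84.3 and 82.8 CPM in WT sham, 78.5, 79.0, 77.8, 76.7 and 82.0 in WT TAC, 54.3, 50.7 and 38.5 in KO sham and 49.1, 37.7, 40.5 and 41.8 in KO TAC. The WT values lay close together, from 76.7 to 84.3 CPM, and the KO values were between 37.7 and 54.3 CPM. Its log2 fold change was -0.90 ± 0.09 (edgeR adjusted p = 3.85e-07) after TAC and -0.78 ± 0.12 (edgeR adjusted p = 0.000259) after sham, and both calls were kept in each alternative run.

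In KO against WT, 15% of all genes tested were lower and 14.8% higher after TAC, and 4.63% lower and 4.57% higher after sham. The counts by role that follow cover few genes each and are to be read beside these shares. The same holds where groups are said not to overlap. After TAC, 30.7% of all genes had no overlap between KO and WT (15.7% lower in KO, 15% higher). Of the 52 genes 38.5% had none, 18 lower and 2 higher. After sham the share was 22.4% of all genes (12.1% lower, 10.3% higher) and 28.8% of the 52, with 14 lower and 1 higher. Among transcription factors and adaptors, 4 of 6 fell in KO after TAC and none rose. Irf7, the regulator that amplifies type I interferon production (mm10 chromosome 7, 141263183 to 141266424, minus strand), changed most. Its transcript stood at 100.2, 126 and 68.5 CPM in WT sham, 138, 126, 128, 127 and 158 in WT TAC, 82.1, 67.6 and 76.9 in KO sham and 57.6, 65.9, 77.5 and 77.0 in KO TAC. All KO TAC libraries lay below all WT libraries except WT sham 133, the library with the fewest reads, at 68.5 CPM. After TAC the difference of KO from WT was -0.96 ± 0.12 (edgeR adjusted p = 4.19e-06), and after sham it was -0.44 ± 0.15 (edgeR adjusted p = 0.0718), which did not pass. Irf1, a transcription factor induced by interferon gamma (mm10 chromosome 11, 53770014 to 53778374, plus strand), was the most abundant of the 6. It stood at 256, 268 and 314 CPM in WT sham, 276, 272, 253, 219 and 279 in WT TAC, 170.0, 192 and 262 in KO sham and 170.4, 147, 163 and 231 in KO TAC. WT TAC and KO TAC overlapped through WT TAC 137 at 219 CPM and KO TAC 354 at 231 CPM. The difference after TAC was -0.55 ± 0.12 (edgeR adjusted p = 0.00185).

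Irf9, the DNA-binding subunit of the complex with STAT2 (mm10 chromosome 14, 55603985 to 55610030, plus strand), was at 119, 131 and 122 CPM in WT sham, 126, 119, 117, 124 and 118 in WT TAC, 113, 111 and 90.1 in KO sham and 85.3, 105, 96.2 and 113 in KO TAC. The groups did not overlap after TAC, although KO TAC 354 at 113 CPM came near the lowest WT value. It fell by 0.28 ± 0.08 (edgeR adjusted p = 0.0142) after TAC, a call that ended without KO TAC 351 (edgeR adjusted p = 0.0837) or KO TAC 353 (0.0541). Ifi35, a leucine zipper protein (mm10 chromosome 11, 101448412 to 101458701, plus strand), was at 46.7, 44.9 and 66.2 CPM in WT sham, 48.9, 45.3, 47.2, 45.9 and 49.2 in WT TAC, 34.0, 41.8 and 37.4 in KO sham and 35.2, 35.9, 40.1 and 34.5 in KO TAC. Its KO values of 34.0 to 41.8 CPM lay below all WT values, and after TAC the difference was -0.38 ± 0.10 (edgeR adjusted p = 0.00754). Nmi, a partner of Ifi35 (mm10 chromosome 2, 51948499 to 51973208, minus strand), was at 19.8, 20.9 and 15.1 CPM in WT sham, 15.7, 16.5, 16.3, 14.6 and 11.7 in WT TAC, 12.2, 12.4 and 4.73 in KO sham and 11.7, 9.23, 14.7 and 12.1 in KO TAC. KO sham 350, 1 of the libraries that stood apart, was lowest at 4.73 CPM. Nmi fell in KO after sham (-0.93 ± 0.26, edgeR adjusted p = 0.0285), but not without WT sham 131 (edgeR adjusted p = 0.0848) or WT sham 132 (0.138), and after TAC the difference of -0.33 ± 0.20 (edgeR adjusted p = 0.238) did not pass. Stat2 was not called in any comparison and had group means of 169 to 183 CPM.

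Of the 6 sensors of RNA and DNA, 1 was lower and 1 higher in KO after TAC, beside 15% and 14.8% of all genes. After sham none was called. Ifih1, the cytosolic sensor of long double-stranded RNA also named MDA5 (mm10 chromosome 2, 62595793 to 62646255, minus strand), was at 155, 157 and 144 CPM in WT sham, 155, 148, 128, 145 and 151 in WT TAC, 134, 126 and 132 in KO sham and 110.1, 99.9, 114 and 134 in KO TAC. The WT TAC libraries held 128 to 155 CPM and the KO TAC libraries 99.9 to 134 CPM, with overlap at KO TAC 354. After TAC it fell by 0.35 ± 0.08 (edgeR adjusted p = 0.00251). Eif2ak2, the kinase PKR that halts translation when it binds double-stranded RNA (mm10 chromosome 17, 78852550 to 78882572, minus strand), went the other way, at 68.9, 74.7 and 74.5 CPM in WT sham, 66.6, 71.4, 53.3, 58.4 and 58.0 in WT TAC, 80.3, 71.8 and 82.3 in KO sham and 73.1, 71.4, 76.9 and 80.8 in KO TAC. Its 4 KO TAC values lay above all 5 WT TAC values, at the closest by a small margin, and the difference was 0.29 ± 0.09 (edgeR adjusted p = 0.0141). Ddx58, the sensor RIG-I and the most abundant of the 6, had means of 155 ± 14.6 CPM (SD) in WT sham, 163 ± 15.8 in WT TAC, 147 ± 25.3 in KO sham and 165 ± 13.7 in KO TAC. Neither Ddx58 nor Dhx58, a regulator of these sensors, was called in any comparison.

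In the IFIT family, whose proteins bind foreign RNA at the ribosome, 3 of 4 fell in KO after TAC and 2 of 4 after sham. Ifit1 (mm10 chromosome 19, 34640889 to 34650009, plus strand) was at 60.8, 85.4 and 66.2 CPM in WT sham, 71.9, 61.1, 58.0, 69.4 and 66.5 in WT TAC, 52.4, 48.6 and 40.7 in KO sham and 31.3, 43.7, 47.7 and 54.8 in KO TAC. The highest KO value, 54.8 CPM in KO TAC 354, lay below the lowest WT value, 58.0 CPM in WT TAC 136. The difference of KO from WT was -0.57 ± 0.13 (edgeR adjusted p = 0.00228) after TAC and -0.59 ± 0.17 (edgeR adjusted p = 0.0279) after sham. Ifit3 (mm10 chromosome 19, 34583529 to 34588982, plus strand), a partner of Ifit1, was at 43.3, 58.2 and 58.7 CPM in WT sham, 58.9, 49.7, 51.6, 51.2 and 59.1 in WT TAC, 33.3, 34.1 and 35.4 in KO sham and 22.3, 36.6, 39.6 and 35.2 in KO TAC. KO and WT were again apart, with 22.3 CPM in KO TAC 351 as the lowest value. Ifit3 differed by -0.70 ± 0.13 (edgeR adjusted p = 0.000362) after TAC and -0.62 ± 0.17 (edgeR adjusted p = 0.0243) after sham. The call on Ifit1 after sham ended without WT sham 132 (edgeR adjusted p = 0.242) or KO sham 350 (0.0641). That on Ifit3 ended without WT sham 132 (edgeR adjusted p = 0.159), WT sham 133 (0.0705) or KO sham 348 (0.0664).

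Ifit3b, listed as I830012O16Rik (mm10 chromosome 19, 34607957 to 34613401, plus strand), is a near copy of Ifit3 on the same chromosome. Of the 50-base stretches of Ifit3 transcripts 51.2% also occur in another gene, mainly Ifit3b, and of those of Ifit3b 45.0% occur elsewhere, mainly in Ifit3. Reads from such stretches cannot be assigned to 1 of the pair, so both levels are uncertain. Ifit3b was at 16.7, 25.1 and 12.8 CPM in WT sham, 20.7, 20.2, 18.9, 25.0 and 19.2 in WT TAC, 17.4, 13.8 and 3.29 in KO sham and 9.41, 8.86, 14.1 and 10.1 in KO TAC. After TAC all KO values, 8.86 to 14.1 CPM, lay below all WT values, and the difference was -0.97 ± 0.27 (edgeR adjusted p = 0.00799). Ifit2, the most abundant member of the family (mm10 chromosome 19, 34550694 to 34576534, plus strand), was not called in any comparison, with means of 140.0 ± 35.1 CPM (SD) in WT sham, 161 ± 18.9 in WT TAC, 119 ± 29.1 in KO sham and 136 ± 18.8 in KO TAC.

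The OAS family makes or resembles enzymes that sense double-stranded RNA and activate an RNase. Among its 5 members Oas1a alone fell after TAC, and none was called after sham. Oas1a (mm10 chromosome 5, 120896257 to 120907525, minus strand) was at 23.7, 34.7 and 24.8 CPM in WT sham, 36.0, 29.3, 29.2, 31.7 and 32.2 in WT TAC, 27.9, 24.9 and 23.9 in KO sham and 21.7, 26.0, 24.7 and 26.5 in KO TAC. The KO TAC range of 21.7 to 26.5 CPM lay below the WT TAC range of 29.2 to 36.0 CPM. After TAC the difference was -0.36 ± 0.12 (edgeR adjusted p = 0.0295), and it ended without WT TAC 134, 137 or 138 (edgeR adjusted p = 0.0956, 0.0548 and 0.0527) or KO TAC 351, 352 or 353 (0.114, 0.0514 and 0.0718). Its level is uncertain, since 57.6% of its 50-base stretches occur in another gene, mainly Oas1g. Oasl1, which restrains translation of Irf7 in mouse (mm10 chromosome 5, 114923240 to 114937911, plus strand), was at 17.6, 23.6 and 24.8 CPM in WT sham, 21.7, 17.6, 18.9, 23.0 and 14.4 in WT TAC, 8.38, 14.9 and 17.7 in KO sham and 10.3, 14.1, 13.8 and 17.5 in KO TAC. It was called lower in the average over both surgeries, at -0.58 ± 0.16 (edgeR adjusted p = 0.00864). Oas2, the most abundant, had means of 151 ± 12.5 CPM (SD) in WT sham, 153 ± 23.7 in WT TAC, 163 ± 19.4 in KO sham and 134 ± 23.0 in KO TAC and was not called, nor was Oasl2. Oas3 ran from 0 to 1.43 CPM, at or near the floor.

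ISG15 is a protein modifier that resembles ubiquitin, and among the 6 genes for it and related ligases 3 fell in KO after TAC and 1 after sham. Isg15 itself (mm10 chromosome 4, 156199424 to 156200818, minus strand) was at 36.0, 43.5 and 36.1 CPM in WT sham, 40.8, 30.9, 37.4, 34.4 and 37.0 in WT TAC, 18.3, 23.9 and 13.6 in KO sham and 20.2, 24.4, 27.7 and 34.2 in KO TAC. All KO sham libraries, at 13.6 to 23.9 CPM, lay below all WT sham libraries, at 36.0 to 43.5 CPM. KO TAC 354 at 34.2 CPM was above WT TAC 135 at 30.9 CPM. The difference of KO from WT was -1.04 ± 0.19 (edgeR adjusted p = 0.00168) after sham and -0.45 ± 0.15 (edgeR adjusted p = 0.0265) after TAC. The call after TAC ended without WT TAC 134 or 136 (edgeR adjusted p = 0.079 and 0.0612) or KO TAC 351, 352 or 353 (0.13, 0.0894 and 0.0538), and the call after sham ended without KO sham 348 and 350 together (0.0898).

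Trim25, a ubiquitin ligase that activates RIG-I and the most abundant of this group (mm10 chromosome 11, 88999403 to 89020293, plus strand), was at 297, 269.5 and 251 CPM in WT sham, 290.4, 301, 267, 269 and 258 in WT TAC, 253, 219.5 and 249 in KO sham and 188, 209.6, 201 and 219 in KO TAC. The 4 KO TAC values lay below all other libraries. It fell by 0.44 ± 0.07 (edgeR adjusted p = 0.000107) after TAC. Usp18, the protease that removes ISG15 and dampens signalling at the interferon receptor (mm10 chromosome 6, 121245906 to 121270917, plus strand), was at 36.5, 44.5 and 46.6 CPM in WT sham, 42.6, 38.7, 35.5, 43.9 and 45.1 in WT TAC, 43.2, 30.6 and 24.3 in KO sham and 18.5, 33.7, 30.3 and 34.6 in KO TAC. After TAC the KO values, 18.5 to 34.6 CPM, lay below the WT values, 35.5 to 45.1 CPM, and the difference was -0.50 ± 0.16 (edgeR adjusted p = 0.0241). The call ended without WT TAC 134, 137 or 138 (edgeR adjusted p = 0.051, 0.0559 and 0.0541) or KO TAC 351 or 353 (0.119 and 0.0504). Uba7, the enzyme that activates ISG15, was not called in any comparison, nor were Herc6 and Trim30a.

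Of the 3 PARP genes and Dtx3l, 1 of 4 fell after each surgery. Parp12, an ADP-ribosyltransferase (mm10 chromosome 6, 39086412 to 39118349, minus strand), was at 132, 137 and 135 CPM in WT sham, 137, 128, 124, 125 and 129 in WT TAC, 96.5, 115 and 108 in KO sham and 99.4, 112, 106 and 116 in KO TAC. The spread within a group was small, and no KO library reached a WT library. It differed by -0.25 ± 0.07 (edgeR adjusted p = 0.0107) after TAC and -0.34 ± 0.09 (edgeR adjusted p = 0.0213) after sham. The call after TAC ended without KO TAC 351 (edgeR adjusted p = 0.0573), and that after sham without WT sham 132 (0.0933) or KO sham 348 (0.0949). Parp14, the most abundant of these genes, had means of 384 ± 37.1 CPM (SD) in WT sham, 381 ± 18.9 in WT TAC, 407 ± 31.2 in KO sham and 399 ± 48.7 in KO TAC, and it, Parp9 and the ubiquitin ligase gene Dtx3l were not called in any comparison.

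Interferon-inducible GTPases act against viruses and against pathogens that live in vacuoles, and 4 of 8 fell in KO after TAC while none was called after sham. Gbp2, a guanylate-binding protein (mm10 chromosome 3, 142620663 to 142638008, plus strand), was at 188, 196 and 185 CPM in WT sham, 208, 179, 182, 186 and 231 in WT TAC, 148, 147 and 182 in KO sham and 104, 114, 122 and 158 in KO TAC. KO TAC held 104 to 158 CPM and WT TAC 179 to 231 CPM, with no overlap. The difference was -0.67 ± 0.11 (edgeR adjusted p = 5.7e-05). Gbp7 (mm10 chromosome 3, 142530338 to 142550083, plus strand), the most abundant of the 8, was at 266, 272 and 246 CPM in WT sham, 302, 257, 226, 257 and 294 in WT TAC, 198, 193 and 223 in KO sham and 164, 188, 204 and 226 in KO TAC. KO TAC 354 reached the level of WT TAC 136, both at 226 CPM. Gbp7 fell by 0.45 ± 0.09 (edgeR adjusted p = 0.000835) after TAC. Igtp, an immunity-related GTPase (mm10 chromosome 11, 58199556 to 58207592, plus strand), was at 66.6, 74.4 and 62.5 CPM in WT sham, 102, 78.9, 79.5, 79.0 and 123 in WT TAC, 57.4, 53.5 and 81.4 in KO sham and 38.1, 50.9, 53.9 and 66.2 in KO TAC. The WT TAC values were the highest of the 4 groups, apart from KO sham 350 at 81.4 CPM, and the KO TAC values all lay below the WT TAC values. After TAC the difference was -0.83 ± 0.15 (edgeR adjusted p = 0.000289).

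Gbp3 (mm10 chromosome 3, 142560052 to 142573212, plus strand) was at 100.3, 104 and 102 CPM in WT sham, 120.3, 101, 78.6, 89.0 and 112 in WT TAC, 103, 76.9 and 79.8 in KO sham and 60.0, 81.4, 73.3 and 95.2 in KO TAC. WT TAC and KO TAC overlapped, and the difference of -0.38 ± 0.13 (edgeR adjusted p = 0.0293) ended without WT TAC 134, 135 or 138 (edgeR adjusted p = 0.104, 0.0518 and 0.0724) or KO TAC 351, 352 or 353 (0.145, 0.0526 and 0.09). Iigp1, another immunity-related GTPase, was not called, with a difference of -0.41 ± 0.16 (edgeR adjusted p = 0.0577) after TAC. Its transcript stood at 224, 200.0 and 189.6 CPM in WT sham, 283, 243, 202, 264 and 308 in WT TAC, 166, 176 and 229.9 in KO sham and 143, 175, 163 and 302 in KO TAC. KO TAC 354 at 302 CPM was far above the other KO TAC libraries, which held 143 to 175 CPM. Irgm1 and Mx2 were not called in any comparison, and Mx1 ran from 0 to 1.54 CPM, at or near the floor.

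Among other antiviral effectors 5 of 8 fell in KO after TAC and 3 of 8 after sham. Rsad2, the radical SAM enzyme viperin that makes a chain-terminating nucleotide (mm10 chromosome 12, 26442743 to 26456452, minus strand), was at 248, 289 and 241 CPM in WT sham, 350.2, 306, 322, 322 and 317 in WT TAC, 193, 202 and 145 in KO sham and 137, 217, 182 and 195 in KO TAC. Every KO value lay below every WT value, and after TAC the gap ran from 217 to 306 CPM. It differed by -0.83 ± 0.11 (edgeR adjusted p = 7.41e-06) after TAC and by -0.53 ± 0.14 (edgeR adjusted p = 0.0168) after sham. Cmpk2, the nucleotide kinase that supplies viperin and whose gene is its neighbour (mm10 chromosome 12, 26469215 to 26479837, plus strand), was at 109, 128 and 111 CPM in WT sham, 131, 124, 124, 136 and 128 in WT TAC, 101, 91.0 and 81.2 in KO sham and 73.6, 94.8, 93.8 and 98.7 in KO TAC. KO and WT were apart here too, at 73.6 to 101 CPM and 109 to 136 CPM. The difference was -0.51 ± 0.09 (edgeR adjusted p = 0.000135) after TAC and -0.36 ± 0.11 (edgeR adjusted p = 0.0461) after sham. The sham call on Rsad2 ended without WT sham 132 (edgeR adjusted p = 0.11) or KO sham 350 (0.0587). That on Cmpk2 was marginal and ended in 12 of the 15 fits that left out 1 library, with edgeR adjusted p from 0.0513 to 0.256; it was kept without WT TAC 135, KO sham 348 or KO TAC 351.

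Bst2, the protein tetherin that holds budding virus at the cell surface (mm10 chromosome 8, 71534262 to 71537437, minus strand), was at 96.9, 109.6 and 130.2 CPM in WT sham, 92.7, 92.2, 92.8, 86.7 and 106 in WT TAC, 48.8, 66.0 and 61.9 in KO sham and 46.9, 59.5, 60.2 and 81.8 in KO TAC. The lowest WT value was 86.7 CPM and the highest KO value 81.8 CPM. The difference was -0.90 ± 0.16 (edgeR adjusted p = 0.000953) after sham and -0.61 ± 0.12 (edgeR adjusted p = 0.000799) after TAC, and without KO sham 348 and 350 together the sham call ended (edgeR adjusted p = 0.0552). Ifitm3 (mm10 chromosome 7, 141009590 to 141010744, minus strand), which had the highest level per kilobase, was at 295, 343 and 300.2 CPM in WT sham, 419.9, 350.5, 333, 398 and 438 in WT TAC, 327, 302 and 317 in KO sham and 265, 263, 261 and 313 in KO TAC. WT TAC stood above the other groups except for WT sham 132 at 343 CPM, and the KO TAC libraries, at 261 to 313 CPM, reached into the KO sham range of 302 to 327 CPM. KO differed from WT by -0.49 ± 0.09 (edgeR adjusted p = 0.000135) after TAC and by 0.01 ± 0.10 (edgeR adjusted p = 0.979) after sham. Of the 50-base stretches of Ifitm3 10.0% also occur elsewhere, mainly in Ifitm1. For Gbp7 the share was 12.7% (mainly Gm43802), for Igtp 11.8% (mainly Irgm2) and for Ifit1 7.13% (mainly Ifit1bl2). Ifi44 (mm10 chromosome 3, 151730923 to 151749959, minus strand) was at 71.1, 90.9 and 69.2 CPM in WT sham, 101, 84.4, 71.3, 91.0 and 84.1 in WT TAC, 74.8, 59.4 and 47.3 in KO sham and 41.5, 71.8, 68.7 and 62.5 in KO TAC. KO TAC 352 at 71.8 CPM lay just above WT TAC 136 at 71.3 CPM. Ifi44 differed by -0.50 ± 0.14 (edgeR adjusted p = 0.011) after TAC, which ended without KO TAC 351 (edgeR adjusted p = 0.0575). Samd9l and Rtp4 were not called in any comparison.

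**Figure D3:**
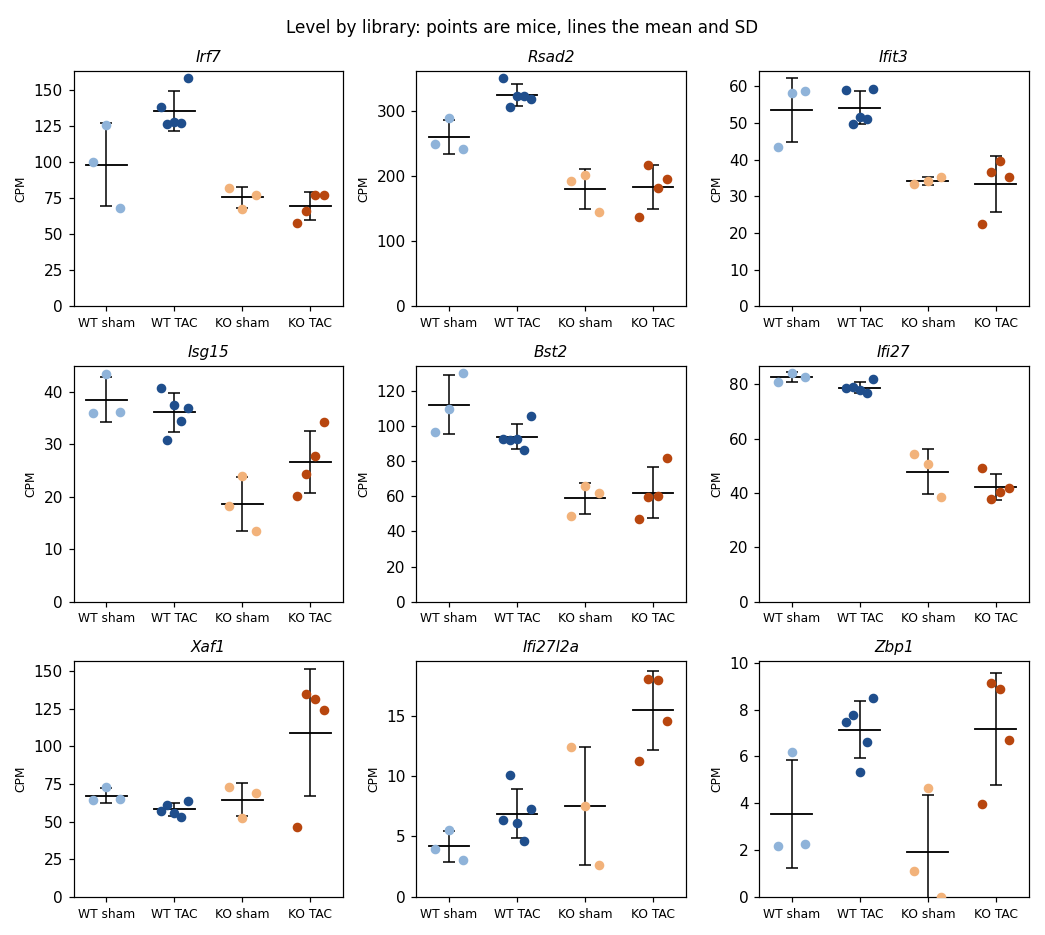
Level in CPM of 9 genes in each of the 4 groups. Points are libraries, 1 per mouse, and black lines are the mean and SD of a group. Irf7, Rsad2, Ifit3, Isg15, Bst2 and Ifi27 have lower means in the KO group than in the WT group of the same surgery. WT and KO libraries overlap for Irf7 after sham, where the difference did not pass, and for Isg15 after TAC. Xaf1 is high in 3 of the 4 KO TAC libraries, at 124 to 135 CPM, and low in the fourth, at 46.1 CPM.

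The last group, genes tied to apoptosis, secreted or of other function, was split, with 2 of 5 lower and 3 of 5 higher in KO after TAC. Xaf1, which encodes a partner of the apoptosis inhibitor XIAP (mm10 chromosome 11, 72301629 to 72313733, plus strand), was at 64.2, 72.8 and 64.7 CPM in WT sham, 56.9, 61.2, 55.7, 53.2 and 63.6 in WT TAC, 72.6, 52.2 and 68.9 in KO sham and 46.1, 135, 131 and 124 in KO TAC. KO TAC 352, 353 and 354 stood above all other libraries, and KO TAC 351 held the lowest level of all. The difference of KO from WT after TAC was 0.90 ± 0.19 (edgeR adjusted p = 0.00113). Ifi27l2a, a small relative and neighbour of Ifi27 (mm10 chromosome 12, 103442167 to 103443680, minus strand), was at 3.96, 5.54 and 3.01 CPM in WT sham, 6.33, 10.1, 6.09, 4.63 and 7.28 in WT TAC, 12.4, 7.51 and 2.67 in KO sham and 11.2, 18.09, 17.99 and 14.5 in KO TAC. All KO TAC values lay above all WT TAC values, while KO sham ran from 2.67 CPM in KO sham 350 to 12.4 CPM in KO sham 348. Ifi27l2a was higher by 1.16 ± 0.28 (edgeR adjusted p = 0.00358) after TAC, in the opposite direction to Ifi27.

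Lgals3bp, the secreted galectin-3-binding protein and the most abundant of this group (mm10 chromosome 11, 118392752 to 118401931, minus strand), was at 216, 258 and 255 CPM in WT sham, 299, 245, 234, 259.9 and 286 in WT TAC, 338, 308 and 286 in KO sham and 281, 335, 333 and 348 in KO TAC. All KO sham libraries were above all WT sham libraries, and KO TAC 351 at 281 CPM lay within the WT TAC range. It was the 1 gene of the 52 that was higher in KO after both surgeries, by 0.29 ± 0.09 (edgeR adjusted p = 0.0131) after TAC and 0.36 ± 0.11 (edgeR adjusted p = 0.0388) after sham. The sham call ended without WT sham 131, 132 or 133 (edgeR adjusted p = 0.188, 0.0664 and 0.0706) or KO sham 348 (0.142). Tor3a, a torsin ATPase (mm10 chromosome 1, 156653617 to 156674339, minus strand), was at 79.2, 85.2 and 94.1 CPM in WT sham, 90.9, 81.6, 84.7, 90.4 and 94.7 in WT TAC, 89.9, 77.5 and 69.7 in KO sham and 70.2, 72.0, 77.4 and 74.9 in KO TAC. Its difference after TAC was -0.26 ± 0.08 (edgeR adjusted p = 0.0176), which ended without KO TAC 351 (edgeR adjusted p = 0.0639) or KO TAC 352 (0.0589).

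**Figure D4:**
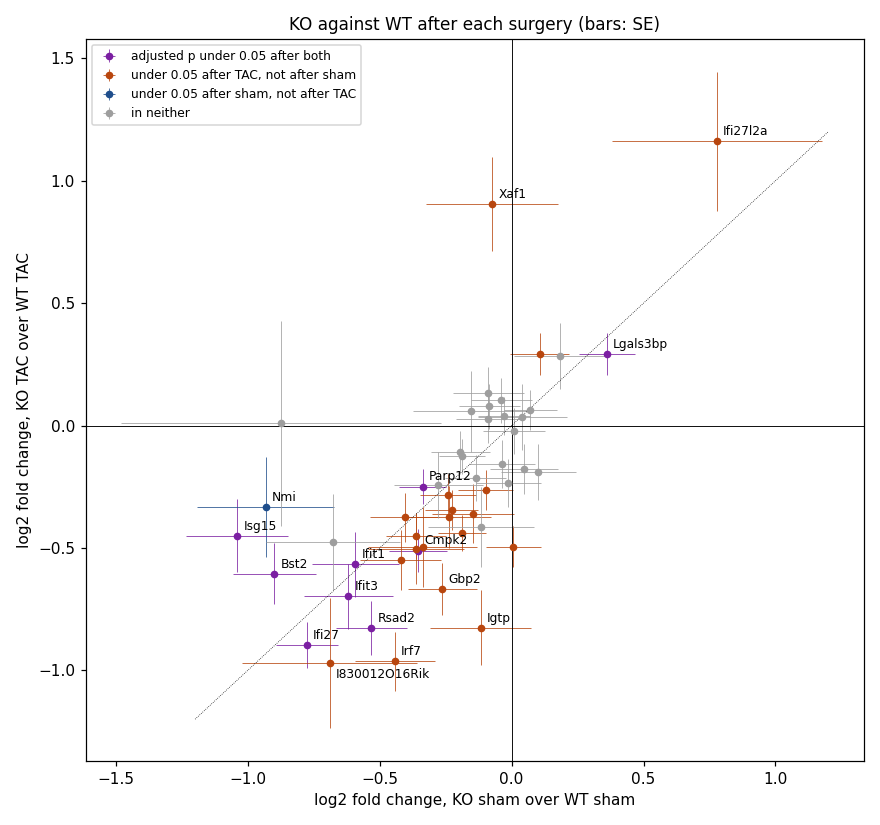
Log2 fold change of KO over WT after sham (horizontal) and after TAC (vertical) for 50 of the 52 genes, with SE bars, and without Oas3 and Mx1, whose levels were at or near the floor. Colours mark which of the comparisons passed an adjusted p of 0.05, and the dotted line marks equal differences. Most points lie below and to the left of 0, with Xaf1 and Ifi27l2a standing high on the vertical axis.

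Of the 9 genes lower after sham, 8 were also lower after TAC, which is 88.9% of the sham list and 33.3% of the TAC list, with Nmi as the exception. These comparisons share no library, though both rest on 1 estimate of the spread. The overlap of the sham and TAC lists over all genes tested was not counted, so these shares have no background beside them. The difference had the same sign after both surgeries in 39 of the 52 genes (75.0%), against 68.4% of all genes tested. It was below 0 in both for 33 genes and above 0 in both for 6. The larger count after TAC does not show that the genotypes differed more there, since the groups are larger, and whether KO and WT differed more after TAC was tested as the difference of the TAC effects.

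Pressure overload in WT hearts gave few calls among these genes, as among all genes tested. In WT hearts 0 of 52 were called in edgeR, while 9 had an unadjusted p under 0.05, DESeq2 called 2 and limma voom called 4; 2.59% of all genes were called. The 9 genes are 17.3% of the 52, near the 15% of all genes that had an unadjusted p under 0.05. The median log2 fold change was 0.02, and that of all genes 0.00. Ifitm3 (0.31 ± 0.09, edgeR adjusted p = 0.093), Irf7 (0.40 ± 0.13, edgeR adjusted p = 0.13) and Rsad2 (0.31 ± 0.12, edgeR adjusted p = 0.201) had positive values, and Sp100 (-0.23 ± 0.08, edgeR adjusted p = 0.123) and Adar (-0.24 ± 0.09, edgeR adjusted p = 0.166) negative ones. These were the 5 genes with the smallest p-values. For Irf7 the 95% confidence interval of the TAC effect in WT ran from 0.12 to 0.68, and for Rsad2 from 0.06 to 0.56. All 5 WT TAC libraries lay above all 3 WT sham libraries for Irf7 and Rsad2, as the values above show, and for Igtp, and below them for Sp100, Xaf1, Mx2 and Adar. These 7 genes are 13.5% of the 52, near the 14.6% of all genes tested that had no overlap between these groups (7.91% higher and 6.71% lower after TAC). Without WT sham 132, 1 gene was called higher.

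In KO hearts 2 of 52 rose after TAC and none fell, against 9.59% of all genes tested. Zbp1, a sensor of Z-form nucleic acid that can trigger necroptosis (mm10 chromosome 2, 173206612 to 173218922, minus strand), was at 2.17, 6.21 and 2.26 CPM in WT sham, 7.47, 7.75, 5.34, 6.63 and 8.52 in WT TAC, 1.12, 4.67 and 0 in KO sham and 3.99, 9.14, 8.89 and 6.70 in KO TAC. Levels were low throughout, and KO sham 350 had no read. TAC against sham was 1.73 ± 0.55 (edgeR adjusted p = 0.0494) in KO and 0.85 ± 0.51 (edgeR adjusted p = 0.477) in WT. Xaf1 differed by 0.76 ± 0.23 (edgeR adjusted p = 0.0391) in KO. Neither call was stable: that on Zbp1 ended without WT sham 133, any 1 of WT TAC 134 to 138, KO sham 348 or 350, or KO TAC 352, 353 or 354, with edgeR adjusted p from 0.0592 to 0.14. That on Xaf1 ended without KO sham 349 or 350 (edgeR adjusted p = 0.104 and 0.055) or KO TAC 352, 353 or 354 (0.12, 0.11 and 0.0787). Both also ended with the compared groups alone (edgeR adjusted p = 0.214 for Zbp1 and 0.192 for Xaf1). With limma voom they ended too (limma adjusted p = 0.41 and 0.393), and Xaf1 ended in DESeq2 (DESeq2 adjusted p = 0.0624). Without KO sham 348 and 350 together the log2 fold change was 0.62 for Zbp1 and 1.06 for Xaf1. The count was 0 without KO sham 350, KO TAC 352 or KO TAC 353, and 1 without WT sham 133 or without WT TAC 134, 136, 137 or 138. Without KO sham 349, it was 7, with 3 higher and 4 lower.

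Averaged over both genotypes, 2 of the 52 genes rose with TAC and 2 fell, against 10.7% of all genes. Zbp1 (1.29 ± 0.38, edgeR adjusted p = 0.03) and Ifi27l2a (0.79 ± 0.25, edgeR adjusted p = 0.0418) were higher. Adar, the enzyme that converts adenosine to inosine in double-stranded RNA (mm10 chromosome 3, 89715022 to 89753455, plus strand), was lower at -0.21 ± 0.06 (edgeR adjusted p = 0.0368), and Sp100 (mm10 chromosome 1, 85650050 to 85709448, plus strand) at -0.20 ± 0.06 (edgeR adjusted p = 0.023). Adar was at 168, 167 and 175 CPM in WT sham, 146, 152, 125, 139.8 and 155 in WT TAC, 169, 151 and 179 in KO sham and 131, 144, 157 and 157 in KO TAC. Sp100 was at 286, 287 and 254 CPM in WT sham, 232, 253, 229.7, 228 and 237 in WT TAC, 274, 228 and 229 in KO sham and 205, 215, 228 and 217 in KO TAC. WT TAC lay below WT sham for both genes, while the KO groups overlapped. All 4 calls depended on single libraries: none was kept without WT sham 131 (edgeR adjusted p = 0.0733 to 0.127), and without WT sham 132 or 133 or KO TAC 352 the count was 1, and without WT TAC 134, WT TAC 136 or KO sham 348 it was 2.

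Whether the TAC effect differed between genotypes was tested directly, and 0 of 52 genes passed in edgeR, with 7 at an unadjusted p under 0.05, 1 called by DESeq2 and 0 by limma voom; 0.69% of all genes passed. The 7 genes are 13.5% of the 52, near the 14.6% of all genes with an unadjusted p under 0.05. The smallest p-values belonged to Ifitm3 (-0.50 ± 0.13, edgeR adjusted p = 0.085), Xaf1 (0.98 ± 0.32, edgeR adjusted p = 0.146), Igtp (-0.71 ± 0.25, edgeR adjusted p = 0.176), Irf7 (-0.52 ± 0.19, edgeR adjusted p = 0.203), Isg15 (0.59 ± 0.24, edgeR adjusted p = 0.259) and Gbp2 (-0.41 ± 0.17, edgeR adjusted p = 0.259). Negative values mean that KO hearts moved down with TAC relative to WT hearts. The 95% confidence interval ran from -0.78 to -0.22 for Ifitm3 and from -0.92 to -0.12 for Irf7. Leaving out KO sham 349 gave 2 calls, and leaving out KO TAC 351 or KO TAC 354 gave 1 each.

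Genes of the interferon pathway outside the 52 were taken from a list of 47, of which 32 could be tested. After TAC 4 were higher and 10 lower in KO, 43.8% in all against 29.8% of all genes tested. After sham 1 was higher and 3 were lower, 12.5% in all, near the 9.21% of all genes. The 32 include the gene for STING, the gene targeted in KO, so a lower level of that gene was fixed by the design. Among the ligands no transcript was found beyond a few reads. Ifnb1 (interferon beta) had 2 counts and Ifng (interferon gamma) 1 count over all 15 libraries, Ifna11 had 1 and Ifnz 8, and the other 9 ligand genes had 0. The receptors were present, with means over all libraries of 160 CPM for Ifnar1 and 103 CPM for Ifnar2, which form the type I receptor, and of 259 CPM for Ifngr1 and 61.9 CPM for Ifngr2, which form the type II receptor.

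Ifngr1 was at 225, 251 and 236 CPM in WT sham, 322, 289.6, 317, 321 and 332 in WT TAC, 176, 258 and 241 in KO sham and 227, 215, 215 and 265 in KO TAC. WT TAC, at 290 to 332 CPM, stood above all other groups. It was lower in KO than in WT after TAC, at -0.46 ± 0.09 (edgeR adjusted p = 0.000681), and higher in WT TAC than in WT sham, at 0.41 ± 0.10 (edgeR adjusted p = 0.0356). The second call ended without any 1 of WT sham 131 to 133, WT TAC 134, 136, 137 or 138 or KO TAC 351, with edgeR adjusted p from 0.0521 to 0.232. Ifngr2 was at 41.5, 45.2 and 41.4 CPM in WT sham, 68.9, 57.0, 62.9, 67.4 and 59.8 in WT TAC, 59.0, 66.8 and 57.0 in KO sham and 73.6, 71.7, 81.1 and 75.9 in KO TAC. WT sham, at 41.4 to 45.2 CPM, lay below all other groups. With TAC it rose by 0.56 ± 0.10 (edgeR adjusted p = 0.00229) in WT, and KO exceeded WT by 0.51 ± 0.11 (edgeR adjusted p = 0.00499) after sham. In signalling, Jak2, a kinase of the interferon gamma receptor, was higher in KO after TAC (0.48 ± 0.07, edgeR adjusted p = 4.65e-05), and Stat3 was lower (-0.40 ± 0.09, edgeR adjusted p = 0.00224).

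Of 6 tested genes that interferon gamma induces, 3 were lower in KO after TAC and 2 after sham, and none was higher. Of all genes tested, 15% were lower after TAC and 4.63% after sham, and 6 genes are few to set beside these shares. The log2 fold change was above 0 in 2 of the 6 after TAC and in 3 after sham. Psmb8 and Psmb9, which encode catalytic subunits of the immunoproteasome, fell furthest. Psmb8 was at 82.0, 97.8 and 86.5 CPM in WT sham, 104, 85.4, 93.8, 101 and 96.8 in WT TAC, 41.4, 54.0 and 52.6 in KO sham and 40.7, 44.6, 41.4 and 72.4 in KO TAC. Psmb9 was at 55.0, 59.8 and 51.9 CPM in WT sham, 62.3, 55.6, 61.4, 52.8 and 59.9 in WT TAC, 32.3, 34.1 and 50.8 in KO sham and 28.9, 24.8, 26.0 and 39.2 in KO TAC. No KO library reached a WT library for either gene. After TAC the differences were -0.97 ± 0.13 (edgeR adjusted p = 1.3e-05) for Psmb8 and -0.99 ± 0.13 (edgeR adjusted p = 8.12e-06) for Psmb9, and after sham they were -0.86 ± 0.17 (edgeR adjusted p = 0.00276) for Psmb8 and -0.55 ± 0.17 (edgeR adjusted p = 0.0402) for Psmb9. The sham call on Psmb8 ended without KO sham 348 and 350 together (edgeR adjusted p = 0.0866). That on Psmb9 ended in 11 of 22 alternatives, with edgeR adjusted p from 0.0508 to 0.18, among them 9 that left out 1 library: each WT sham mouse, WT TAC 134, 136 and 138, KO sham 348 and 349, and KO TAC 351. Samhd1, a nuclease that lowers the pool of deoxynucleotides, was lower in KO after TAC (-0.54 ± 0.09, edgeR adjusted p = 5.73e-05). Ikbke, a kinase related to TBK1, was at 1.04, 1.33 and 0 CPM in WT sham, 0.443, 0.602, 0.526, 0.636 and 0.550 in WT TAC, 7.04, 1.93 and 2.67 in KO sham and 3.59, 3.82, 4.80 and 1.28 in KO TAC. It was higher in KO after TAC (2.61 ± 0.51, edgeR adjusted p = 0.000489), at levels of a few CPM.

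Markers of other cell types moved with genotype after TAC. Summed endothelial markers were 14800 to 16500 CPM in WT TAC and 12900 to 13700 CPM in KO TAC, and 13800 to 15200 CPM in WT sham and 14700 to 16400 CPM in KO sham. Of the 10 endothelial markers 6 were lower in KO after TAC, Tek furthest at -0.99 ± 0.07 (edgeR adjusted p = 4.08e-10), and Pecam1, the gene for CD31, was higher at 0.19 ± 0.06 (edgeR adjusted p = 0.0185). Beside these counts, 15% of all genes tested were lower and 14.8% higher. Fibroblast markers, 6 genes, summed to 189 to 271 CPM in WT TAC and 67.4 to 125 CPM in KO TAC, and to 71.7 to 122 and 50.9 to 154 CPM in WT and KO sham. Cardiomyocyte markers, 7 genes, summed to 211 to 238 CPM in WT TAC and 95.3 to 158 CPM in KO TAC, and to 254 to 298 and 211 to 308 CPM in WT and KO sham. Pericyte and smooth muscle markers, 7 genes, ran from 117 to 163 CPM in WT TAC and from 109 to 159 CPM in KO TAC, with 121 to 153 and 144 to 232 CPM in WT and KO sham. Within that sum the genes went both ways after TAC. The smooth muscle genes Acta2 (1.18 ± 0.30, edgeR adjusted p = 0.00497), Myh11 (1.78 ± 0.31, edgeR adjusted p = 0.000159) and Tagln (1.85 ± 0.31, edgeR adjusted p = 0.000116) were higher in KO, and the pericyte gene Rgs5 was lower (-0.41 ± 0.12, edgeR adjusted p = 0.0141). Leukocyte markers were at 5.49 to 9.96 CPM in WT TAC and 7.18 to 13.3 CPM in KO TAC, and at 6.51 to 11.3 and 7.37 to 11.9 CPM in WT and KO sham. Of the 4 leukocyte markers that could be tested Cd68, a macrophage marker, was higher in KO after TAC by 1.37 ± 0.39 (edgeR adjusted p = 0.00986). The others did not pass, with Ptprc at 1.01 ± 0.67, Csf1r at -0.24 ± 0.88 and Lyz2 at -0.70 ± 0.42. Lymphatic and endocardial markers, 5 genes, held 313 to 379 CPM over all libraries, most of it from Flt4. Plvap, a gene of fenestrated endothelium, was higher in KO after TAC by 1.10 ± 0.26 (edgeR adjusted p = 0.0029), and with TAC it rose by 2.87 ± 0.36 (edgeR adjusted p = 3.75e-05) in KO and by 1.52 ± 0.36 (edgeR adjusted p = 0.0248) in WT. After sham the sums of WT and KO overlapped for endothelial, fibroblast, cardiomyocyte, pericyte and leukocyte markers, but single markers were called. Tek (-0.43 ± 0.08, edgeR adjusted p = 0.0015) and the fibroblast gene Pdgfra (-0.97 ± 0.20, edgeR adjusted p = 0.00327) were lower in KO. Pecam1 (0.31 ± 0.07, edgeR adjusted p = 0.011) and Cdh5 (0.30 ± 0.07, edgeR adjusted p = 0.0104) were higher. So were the pericyte genes Pdgfrb (0.84 ± 0.26, edgeR adjusted p = 0.0456) and Abcc9 (0.76 ± 0.18, edgeR adjusted p = 0.00935). The part of these markers in the differences of the interferon-stimulated genes was not tested.

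The promoter motif was about as frequent in genes that fell as in those that did not. By the average over both surgeries, 14 of 23 genes called lower and with a window had a match of GAAANNGAA (60.9%), as had 8 of 14 not called (57.1%) and 1 of 2 called higher. Dhx58, Zbp1, Oas2, Usp18, Parp9, Parp14, Mx1, Mx2, Iigp1, Rtp4, Ifi27l2a, Ifi27 and Tor3a had no window in the table.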

How the data were processed

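RNA of 15 sorted endothelial libraries was sequenced after RNeasy Plus extraction and TruSeq library preparation, per the labels' protocols. Reads were aligned with HISAT2 2.1.0 to mm10, per the submitters' processing notes. The authors deposited 1 table of counts, made with featureCounts 1.6.2 with the strand option and the UCSC gene annotation, per the file headers. No option for multimapping or overlapping reads was set, so genes with near-identical copies lose reads.

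Columns were matched to samples by mouse number and surgery, and groups came from genotype and treatment. Genes were kept by filterByExpr defaults (minimum count 10, total 15), scaled by TMM (factors 0.9599 to 1.0311) and fitted with edgeR 4.0.16 in R 4.3.3, with 1 coefficient per group and 11 residual degrees of freedom. Each of 7 contrasts was tested two-sided, with Benjamini-Hochberg adjustment over all 12471 genes and a threshold of 0.05. The script was tested on simulated data. Alternatives were DESeq2 1.42.0, limma 3.58.1 voom with quality weights, RLE factors, no filter, a minimum of 5 CPM in at least 3 libraries, a fit of the compared groups alone, each library left out, and KO sham 348 and 350 left out together. Values in every library are given for genes called in at least 1 contrast or with one of the 5 smallest p-values in the TAC contrast of WT or in the difference of the TAC effects. Means by group are given for the most abundant gene of each role where it was not called. The genes, lists and alternatives were chosen with earlier results of these data known. P-values measure the spread between these mice, and the floor of 3 counts covers counting error alone, since PCR copies of 1 molecule could not be recognised. Of the 47 pathway genes 43 matched by symbol and 4 by synonym. Of these, 1 is counted but not reported singly here.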

Additional observations from a re-analysis of the deposited data

Results flagged for a closer look

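In groups of 4 or 5 libraries, 3 of 104 sets of values held 1 library far from the others, where chance gives about 1 in 20. Xaf1 was at 46.1 CPM in KO TAC 351 and at 124 to 135 CPM in the other 3 KO TAC libraries. Ifitm3 was at 313 CPM in KO TAC 354 and at 261 to 265 CPM in the other KO TAC libraries. Oas3 was at 1.24 CPM in WT TAC 138 and at 0.253 to 0.526 CPM in the other WT TAC libraries, all near the floor.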

How the results depend on the processing

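The counts of genes called in KO against WT after TAC (28) and averaged over surgery (29) stayed within 1.5 times under each alternative, at 21 to 31 and 24 to 30 with 1 library left out. After sham the count was 10. It became 3 when the compared groups alone were fitted, 3 with limma voom, 1 without KO sham 348 and 350 together, and 3 to 12 with 1 library left out. With the compared groups alone and with limma voom, the sham calls kept were on Isg15, Bst2 and Ifi27. Those on Nmi, Ifit1, Ifit3, Parp12, Rsad2, Cmpk2 and Lgals3bp ended in both fits. For TAC in WT the count of 0 became 2 with DESeq2, 1 with the compared groups alone, 4 with limma voom, and 0 to 1 with 1 library left out. For TAC in KO the count of 2 became 4 with no filter, 0 with the compared groups alone, 0 with limma voom, 0 without KO sham 348 and 350 together, and 0 to 7 with 1 library left out. For TAC averaged over genotype the count of 4 became 1 with limma voom, 1 without KO sham 348 and 350 together, and 0 to 6 with 1 library left out. Where the TAC effects of both genotypes were compared, the count of 0 became 1 with DESeq2, 1 with no filter, and 0 to 2 with 1 library left out. The cause of these changes was not tested. Of 73 calls on single genes 45 were kept in each alternative and none changed sign. Of 42 calls on pathway genes, for which the alternatives were added after seeing the data, 22 were kept and none changed sign. Without KO sham 348 and 350, KO sham has 1 library, which is assumed to vary like the other groups. No paired analysis was possible because WT and KO mice, and sham and TAC mice, share no replicate numbers. Depth limits Oas3, Mx1 and Zbp1 most, in WT sham 133 in particular, where 3 counts stand at 2.26 CPM.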

Other observations

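Some of these genes lie close to each other, and whether neighbours move alike was not tested. Rsad2 and Cmpk2 are adjacent on mm10 chromosome 12 and were both lower in KO after TAC, and so were Gbp2, Gbp3 and Gbp7 on chromosome 3, of which Gbp3 was lost when single libraries were left out. Ifit1, Ifit3 and Ifit3b on chromosome 19 were lower, while Ifit2 beside them was not called. Ifi27 and Ifi27l2a, neighbours on chromosome 12 on opposite strands, were lower and higher. On chromosome 5 Oas1a was lower while Oas2 and Oas3 were not called. With group means removed, log2 CPM values of the 52 genes had a median Pearson correlation of 0.35 between pairs over the 15 libraries, and 81.1% of pairs were above 0. The pairs share libraries and their depth, and the same values were not computed for all genes tested. So this is a description with no background beside it.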
